A study of Mus musculus with 4 samples.

Results

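The oxidative phosphorylation genes were all entries of the count matrix whose symbol began with mt-, Nduf, Uqcr, Atp5 or Cox4 to Cox8, together with Sdha, Sdhb, Sdhc and Sdhd, with pseudogene symbols left out. The rule found 106 entries of 31053 genes: 13 encoded in the mitochondrial genome and 93 in the nucleus. The nuclear entries comprised 38 named for complex I, 8 complex I assembly factors, 4 of complex II, 8 of complex III, 18 of complex IV and 17 of complex V. Among the kept barcodes 102 entries had at least 1 UMI, and 88 nuclear entries had at least 20 UMIs over the classed barcodes, the minimum used below. The other 5 were Cox7b2, Cox8b, Cox8c and a duplicate Atp5o entry at 0 UMIs, and Ndufa4l2 with 16.

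Oxidative phosphorylation passes electrons from NADH and succinate along complexes I to IV of the inner mitochondrial membrane, and complex V makes ATP with the proton gradient that results. Complexes I, III, IV and V combine subunits from both genomes, while complex II, succinate dehydrogenase, is nuclear encoded throughout. In bone, the pathway is known for the many mitochondria of osteoclasts, and in marrow for the loss of mitochondria as red cells mature and for the reliance of neutrophils on glycolysis.

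Mice were 8 weeks old, and both ends of the tibia, proximal and distal, gave the cells, which dispase, collagenase and trypsin released. All carried Col10a1Cre, Rosa26-Tdtomato, Irx3 +/Δ and Irx5 +/-, the heterozygous control genotype, and none received PTH. Col10a1Cre drives recombination from a promoter of hypertrophic chondrocytes, so Tdtomato labels those cells and their descendants. The 4 records shared a single matrix of 15014 barcodes with 1 barcode suffix, so the data were treated as 1 library, without replicates and without a comparison of genotypes. Intervals below, given in brackets, are exact 95% intervals (a normal approximation for a fold between mt- to nuclear ratios) and cover counting error only.

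After the filters 12618 barcodes remained, with a median of 3842 UMIs, and 9911 of them (78.5%) were placed in a class by marker genes that were not oxidative phosphorylation genes. The 20 classes described held 45 to 1677 barcodes, and in each at least 4 listed markers were raised at least 2-fold over the other classes. The same markers placed the barcodes, so their rise is not an independent check of the classes. Megakaryocyte-like (18 barcodes), endothelial-like (3) and pericyte- or smooth muscle-like (1) barcodes were too few for values. Most barcodes were haematopoietic: osteoblast-like and marrow stromal-like barcodes, the skeletal classes, numbered 73 and 45. Classes were less sure for 498 barcodes whose score was within 2 times of the next class, and 2707 barcodes had no class.

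Mitochondrial-encoded transcripts made up 5.44% of all UMIs of the kept barcodes and nuclear-encoded members 1.46%. The nuclear sum of a class is given as CPM, with the UMIs outside mt- genes as denominator, and the mitochondrial sum as a percent of all UMIs. The nuclear sum differed 10.5-fold between the highest and the lowest class and the mitochondrial sum 4.25-fold. Without haemoglobin UMIs in the denominator the range of the nuclear sum was 5.69-fold, with mature neutrophil-like barcodes lowest. The 2 sums did not order the classes alike: over the 20 classes, all of 1 library, Pearson's r of their log2 values was 0.61 and Spearman's rho 0.32, and without late erythroid-like barcodes r was 0.42.

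**Figure D1:**
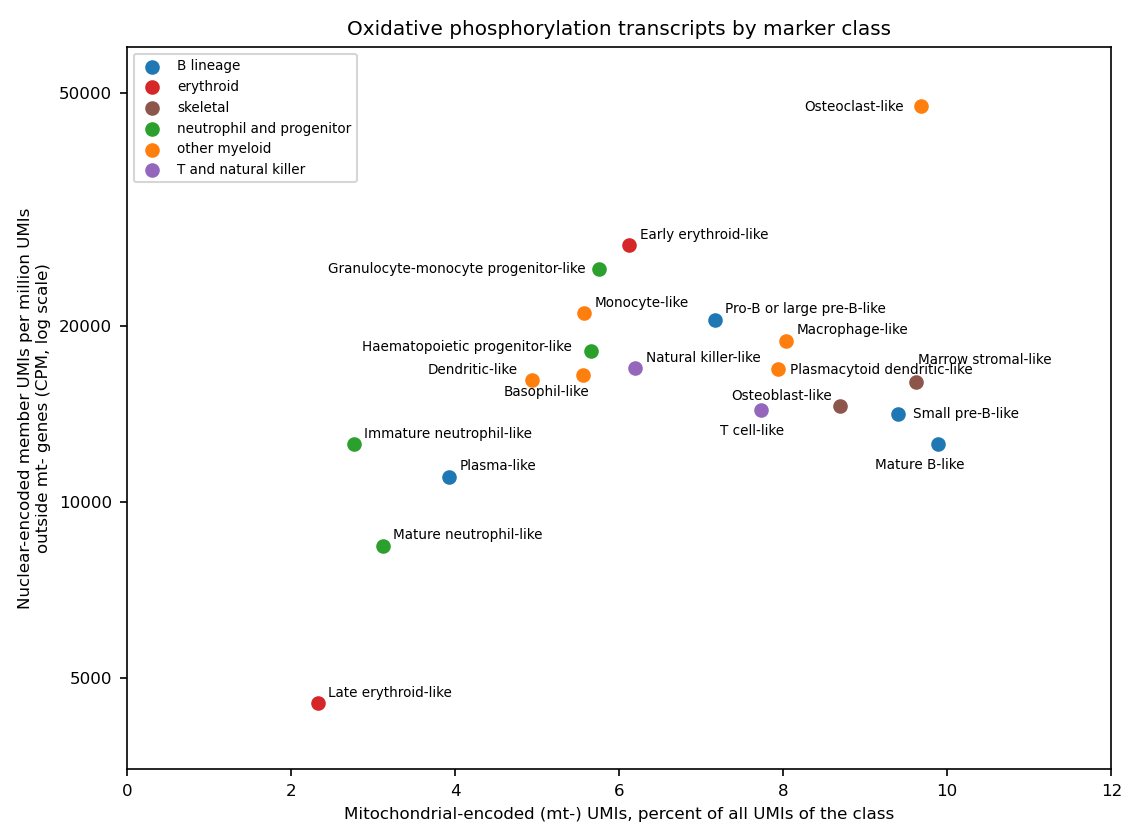
Mitochondrial-encoded UMIs as a percent of all UMIs (x axis) against nuclear-encoded member CPM outside mt- genes (y axis, log scale), one point per marker class, coloured by lineage. Osteoclast-like barcodes stand at the top right (9.68% and 47499 CPM), mature B-like barcodes at the right (9.89% and 12583 CPM) and late erythroid-like barcodes at the lower left (2.33% and 4540 CPM). Both axes count haemoglobin UMIs in their denominators.

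Osteoclast-like barcodes had the highest nuclear sum. Their 45 barcodes held 37997 nuclear-encoded UMIs, or 47499 CPM (47023 to 47979), against 14980 CPM in all other classed barcodes, which was 3.17-fold higher (3.14 to 3.20). The next class, early erythroid-like, had 27507 CPM, and the osteoclast-like sum was 1.73-fold above it (1.70 to 1.75). Across single osteoclast-like barcodes the median was 41297 CPM with quartiles of 36447 and 53226, above the upper quartile of each other class. The sum was 2.26-fold that of monocyte-like barcodes (2.23 to 2.28) and 2.51-fold that of macrophage-like barcodes (2.46 to 2.57), other cells of the same myeloid origin. It was 3.26-fold that of osteoblast-like barcodes (3.17 to 3.34).

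**Figure D2:**
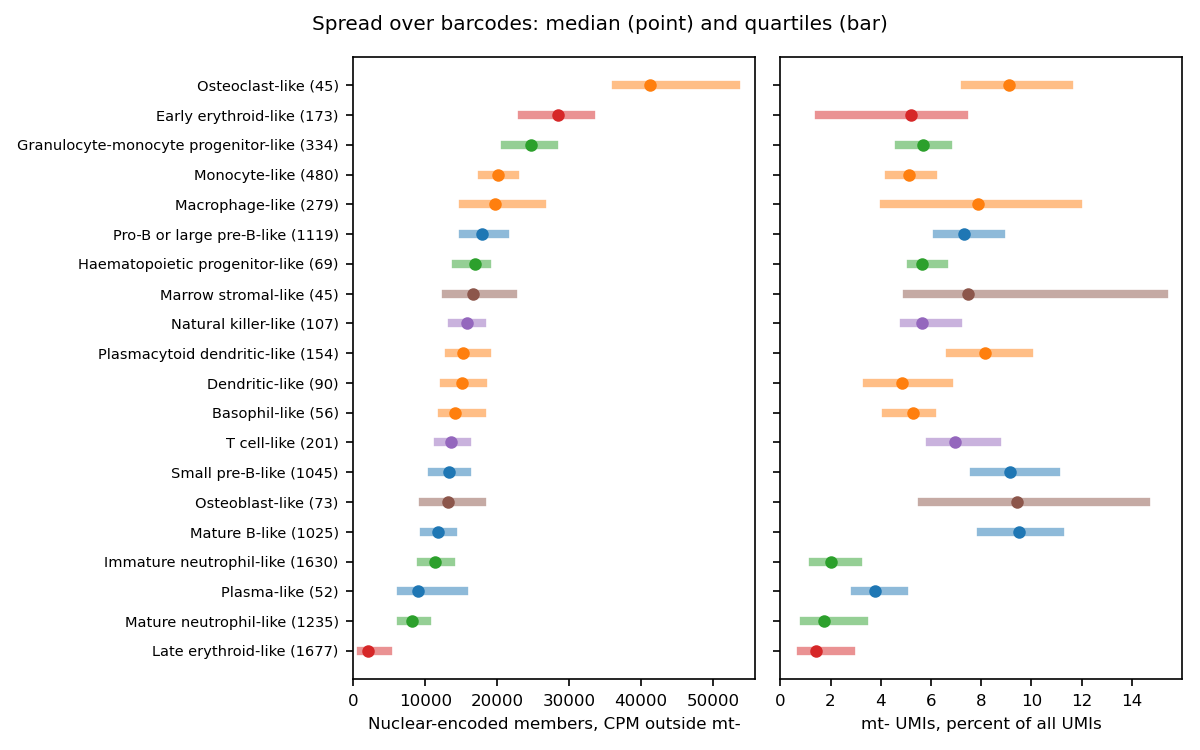
Median (point) and quartiles (bar) over the barcodes of each class for nuclear-encoded member CPM outside mt- genes (left) and mt- percent of all UMIs (right), classes ordered by the nuclear median with the number of barcodes in brackets. The osteoclast-like bar (36447 to 53226 CPM) lies above all others, and osteoblast-like and marrow stromal-like barcodes spread widely in mt- percent.

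Of the 88 nuclear members, 81 were at least 1.5 times higher in osteoclast-like barcodes and 3 at least 1.5 times lower, beside 29.5% of all 13500 genes higher and 30.9% lower. The members' median log2 ratio was 1.67, against 0.05 over all genes. With haemoglobin left out of the denominator the members' counts were 79 and 3, beside 25.1% and 35.7% of all genes. The median of all genes was then -0.12, a shift of similar size in every class but the late erythroid-like one. Each of the 4 subunits of complex II was among the higher members: Sdha, the flavoprotein, had 445 CPM against 98.5 CPM in the other classes (4.52-fold, 4.05 to 5.03). Sdhb, the iron-sulphur subunit, was 5.22-fold higher (4.63 to 5.87), the membrane anchor Sdhc 5.59-fold (4.76 to 6.54) and the anchor Sdhd 3.77-fold (3.31 to 4.27). As a sum, complex II was 4.61-fold higher, complex III 3.86-fold, complex V 3.21-fold, complex IV 3.07-fold and complex I 2.93-fold.

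Among single members of osteoclast-like barcodes, the 2 small complex III subunits Uqcr11 and Uqcr10 had 1010 and 1088 CPM, against 153 and 177 CPM in the other classes, ratios of 6.60 (6.14 to 7.09) and 6.13 (5.72 to 6.57). The complex I assembly factor Ndufaf5 had 26 UMIs (32.5 CPM, against 4.10 CPM; 7.92-fold, 5.08 to 11.9). Atp5b, the catalytic subunit of complex V, was 4.00-fold higher (3.77 to 4.24), and Cox4i1, a nuclear-encoded subunit of complex IV, 3.30-fold (3.16 to 3.45). Ndufb11 of complex I stood at the lower end of the structural subunits that passed the threshold, at 1.68-fold (1.498 to 1.881). The 3 members called lower were Cox6a2, Cox6b2 and the assembly factor Ndufaf7, with 0, 5 and 6 UMIs. For Cox6a2 a count of 0 allows up to 3.75 CPM. The other classes together had 13.8 CPM, but the median over classes was 3.61 CPM. Plasmacytoid dendritic-like barcodes, at 676 CPM, held most Cox6a2 UMIs, so this call does not set osteoclast-like barcodes apart from a typical class. Osteoclast-like barcodes were the class with the highest CPM for 72 of the 88 members.

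The mitochondrial genome moved less. The mt- share of osteoclast-like barcodes was 9.68% (9.61 to 9.74), close to that of mature B-like (9.89%), marrow stromal-like (9.62%) and small pre-B-like (9.40%) barcodes. The ratio of mt- UMIs to nuclear-encoded member UMIs was 2.26 (2.23 to 2.28), beside 2.27 (2.25 to 2.28) in immature neutrophil-like barcodes, whose interval overlaps, and these were the lowest of the 20 classes in the sums over all barcodes. All 13 mt- genes were higher as a share of UMIs than in the other classes, between mt-Co1 at 1.62-fold (1.59 to 1.65) and mt-Nd6 at 2.76-fold (2.06 to 3.63, 53 UMIs). Split at the class's median depth, the deeper osteoclast-like barcodes had a nuclear sum of 48958 CPM and the shallower ones 39801 CPM. The mt- to nuclear ratios were 2.09 and 3.30 in the same order. The class as a whole was deep, with a median of 19223 UMIs. Immature neutrophil marker transcripts, a gauge of RNA from other cells, stood at 1339 CPM there, within the range of 225 to 2850 CPM over the classes outside the neutrophil and granulocyte-monocyte progenitor groups. Haemoglobin genes, another such gauge, stood at 13272 CPM in osteoclast-like barcodes, the highest value outside the 2 erythroid-like classes and above 8117 CPM in granulocyte-monocyte progenitor-like barcodes, the next. The part of this RNA in the result was not tested.

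Genes that serve the same organelle were counted beside the members in osteoclast-like barcodes. All 17 citric acid cycle and pyruvate dehydrogenase genes were at least 1.5 times higher (median log2 ratio 1.56), as were all 17 import and chaperone genes (median 1.56) and 68 of 77 measured mitochondrial ribosomal protein genes (median 1.08). Of 36 measured assembly factors outside the member rule 23 were higher and 0 lower. Slc25a4, the adenine nucleotide carrier that exchanges ADP for ATP, had 496 CPM against 58.2 CPM in the other classes (8.53-fold, 7.67 to 9.47). Of 8 nuclear regulators 3 were higher and 4 lower. Ppargc1b, a transcriptional coactivator of mitochondrial genes, had 128 UMIs and 160 CPM against 2.13 CPM in the other classes, a 75.1-fold ratio (58.5 to 96.4). Its partner Esrra, an orphan nuclear receptor, was 4.06-fold higher (2.95 to 5.46), whereas Nrf1 had 14 UMIs (17.5 CPM, against 49.2 CPM) and Ppargc1a 0 UMIs. The rise was not confined to mitochondrial genes: of 19 glycolysis genes 11 were higher and 2 lower (median log2 ratio 0.90). Of 16 cycling genes 0 were higher and 13 lower.

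**Figure D3:**
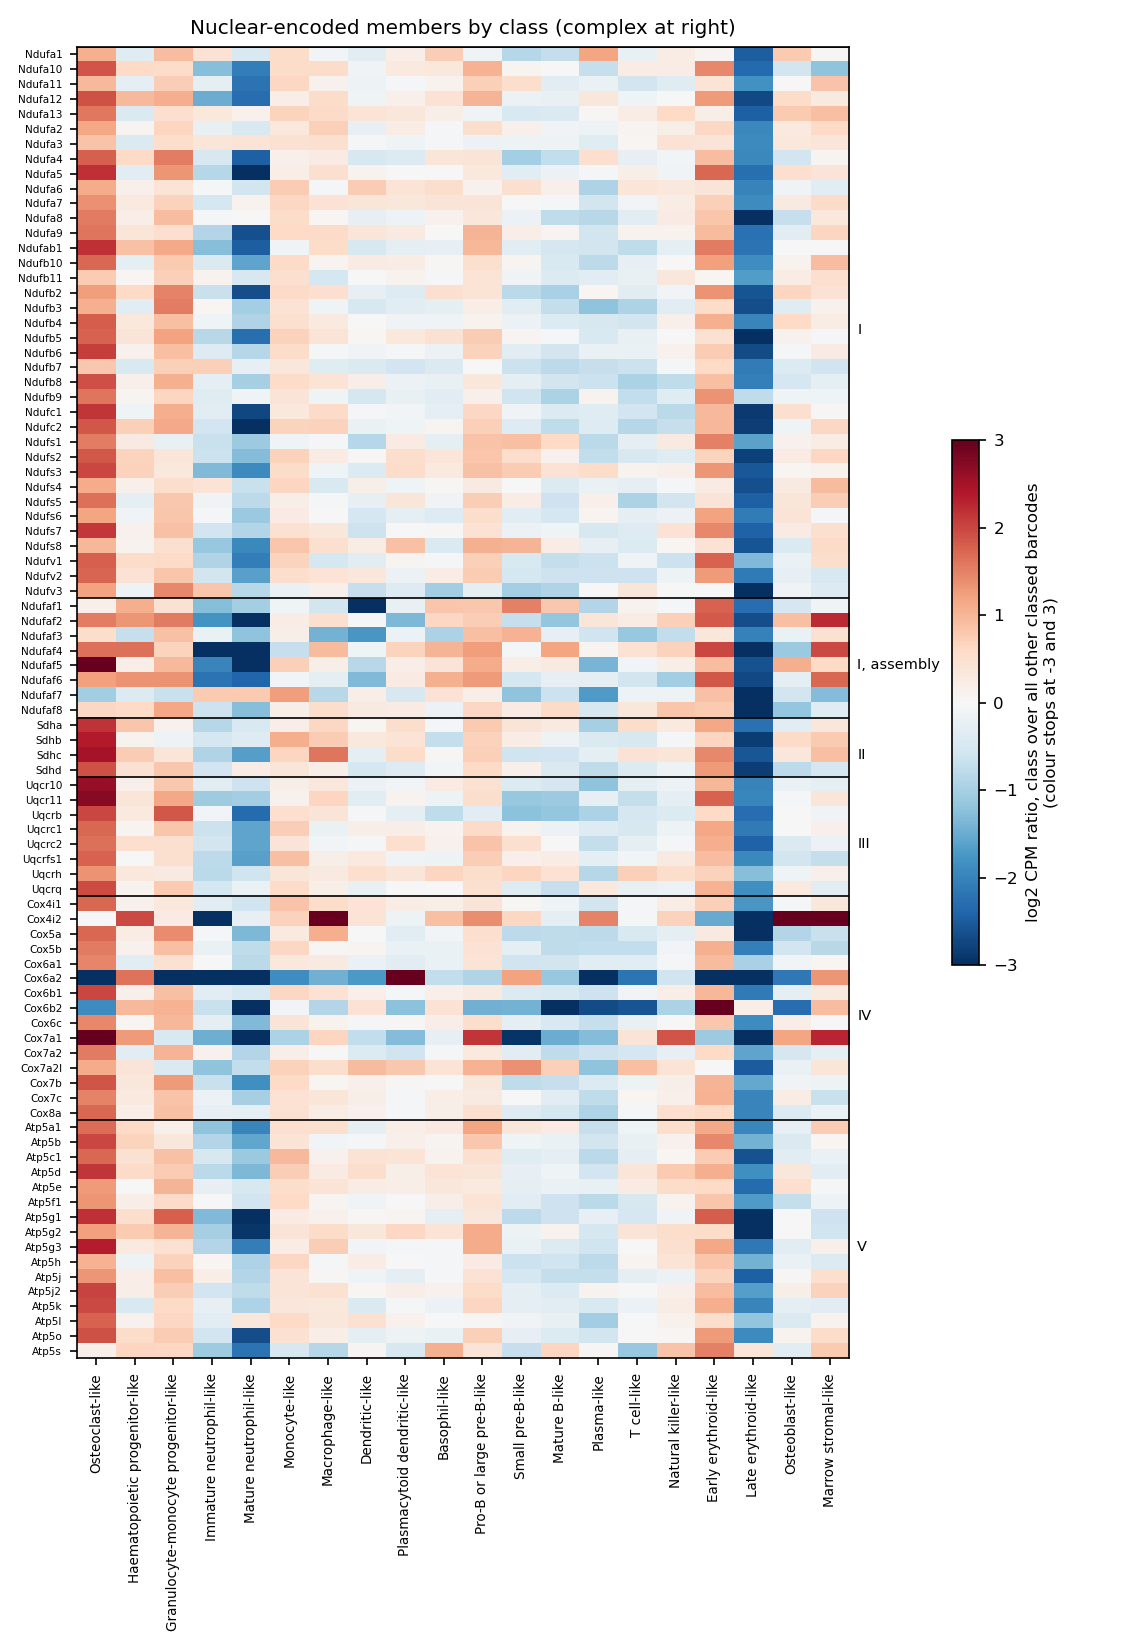
log2 ratio of CPM in each class over all other classed barcodes for the 88 nuclear members with at least 20 UMIs, rows grouped by complex and columns by class, with 0.5 counts added on each side. Red fills most of the osteoclast-like, early erythroid-like and granulocyte-monocyte progenitor-like columns and blue the mature neutrophil-like and late erythroid-like columns; strong colours of Cox4i2 and Cox7a1 rest on few UMIs.

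Early erythroid-like and granulocyte-monocyte progenitor-like barcodes followed. The 173 early erythroid-like barcodes had 27507 CPM (27290 to 27726), against 14949 CPM in the other classes, with 68 members at least 1.5 times higher and 3 lower, beside 33.4% and 37.1% of all genes. Their highest members were Cox6b2, at 172 CPM against 19.98 CPM (8.62-fold, 7.67 to 9.68), and the assembly factor Ndufaf4, at 57.0 CPM against 14.2 CPM (4.03-fold, 3.32 to 4.85). Uqcr11 was 3.43-fold higher (3.23 to 3.65) and Atp5g1, which encodes the membrane ring subunit of complex V, 3.53-fold (3.32 to 3.74). The early erythroid-like mt- share spread from a quartile of 1.56% to one of 7.30%. Of 16 cycling genes 15 were higher in these barcodes, and glycolysis genes went the other way, with 4 of 19 higher and 13 lower.

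The 334 granulocyte-monocyte progenitor-like barcodes had 25044 CPM (24920 to 25170), against 14351 CPM in the other classes. There 59 members were higher and 2 lower, beside 17.6% and 41.9% of all genes. The counts without haemoglobin in the denominator were 44 and 4, beside 13.2% and 49.4% of all genes. Uqcrb, a matrix-facing subunit of complex III, had 532 CPM against 147 CPM (3.62-fold, 3.47 to 3.76), and Atp5g1 had 497 CPM against 144 CPM (3.45-fold, 3.309 to 3.596). Ndufa4, named for complex I and now placed in complex IV, had 927 CPM against 323 CPM (2.88-fold, 2.79 to 2.96). Cox6a2 was lowest, with 5 UMIs (0.05-fold, 0.02 to 0.13), against a comparison value that rests mostly on plasmacytoid dendritic-like barcodes. Glycolysis genes were raised with the members in this class, with 11 of 19 higher and 2 lower.

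Along the granulocyte series the nuclear sum was lower at each stage, and the mt- share of the summed UMIs was not. Nuclear members had 25044 CPM in granulocyte-monocyte progenitor-like, 12577 CPM in immature neutrophil-like and 8432 CPM in mature neutrophil-like barcodes, so that the mature sum was 0.34-fold that of the progenitors (0.33 to 0.34). The mt- share was 5.76%, 2.77% and 3.12% in the same order, and its mature neutrophil-like value was 1.13-fold the immature one (1.12 to 1.13). The median mt- share over barcodes was lower at each stage, being 5.68%, 2.03% and 1.74%. The ratio of mt- to nuclear UMIs was 2.44, 2.27 and 3.82. As a median over barcodes this ratio was 2.42, 1.81 and 2.22. At most 10% mt- UMIs it was 2.39, 2.07 and 2.66, and at most 5% it was 1.99, 1.89 and 2.00. Monocyte-like barcodes, the other branch of the progenitors, kept 21037 CPM, 0.84-fold the progenitor value (0.83 to 0.85).

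In mature neutrophil-like barcodes 1 member, Ndufaf7 (1.70-fold, 1.33 to 2.14), was higher and 67 lower. Of all genes 18.1% were higher and 60.1% lower, so the 76.1% of members called lower stood beside a background that was itself high. The members' median log2 ratio was -1.10 and that of all genes -1.07. With haemoglobin also left out of the denominator 0 members were higher and 75 lower, beside 15.5% and 63.9% of all genes. Members differed widely around the median of -1.10. Atp5g1 had 17.7 CPM in mature neutrophil-like barcodes against 186 CPM in the other classes (0.09-fold, 0.07 to 0.13), and Ndufa5, a peripheral-arm subunit of complex I, 4.94 CPM against 59.5 CPM (0.08-fold, 0.05 to 0.14). The assembly factor Ndufaf2 was lowest by the naming rule, with 2 UMIs (0.05-fold, 0.01 to 0.19). Cox8a, a small complex IV subunit, kept 488 CPM against 598 CPM (0.82-fold, 0.77 to 0.86). Sdhd had 102 CPM against 87.2 CPM (1.17-fold, 1.03 to 1.31), whereas Sdhc had 13.1 CPM against 41.5 CPM (0.32-fold, 0.22 to 0.44). Atp5l, a membrane subunit of complex V, had 514 CPM against 404 CPM (1.27-fold, 1.21 to 1.34). Complex II thus held its largest share of the nuclear sum, 2.95%, in this class.

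Among the other mitochondrial genes of mature neutrophil-like barcodes, 71 of 77 mitochondrial ribosomal protein genes and 12 of 13 mitochondrial RNA stability and processing genes were at least 1.5 times lower. Slc25a4 had 11 UMIs (0.06-fold, 0.03 to 0.10). Of 16 cycling genes 16 were lower. The mitophagy list stood apart from these, with 4 of 8 higher and 1 lower: Map1lc3b, which encodes an autophagosome membrane protein, had 1025 CPM against 244 CPM (4.20-fold, 4.04 to 4.38) and Ulk1, the kinase that starts autophagy, 85.5 CPM against 36.1 CPM (2.37-fold, 2.06 to 2.70). Glycolysis genes were 7 higher and 4 lower of 19.

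Immature neutrophil-like barcodes had 3 members higher and 37 lower, beside 9.85% and 64.5% of all genes, a smaller share of lower calls than the background (42.0%). The median log2 ratio was -0.54 for the members and -1.02 for all genes. The complex I subunit Ndufv3 (1.77-fold, 1.68 to 1.87), the assembly factor Ndufaf7 (1.71-fold, 1.505 to 1.950) and Ndufb7 (1.65-fold, 1.59 to 1.71) were the 3 higher members. With haemoglobin left out of the denominator 0 members were higher and 53 lower, beside 7.59% and 72.5% of all genes. Ndufaf4 had 15 UMIs (1.04 CPM, against 19.9 CPM; 0.05-fold, 0.03 to 0.09). In monocyte-like barcodes 28 members were higher and 3 lower, beside 23.8% and 27.7% of all genes. Without haemoglobin in the denominator, however, the counts were 6 and 4, beside 17.8% and 33.5% of all genes. Ndufaf7 and Sdhb led there, at 2.36-fold (1.99 to 2.79) and 2.14-fold (1.97 to 2.32).

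In the B lineage the nuclear and mitochondrial sums moved in opposite directions. Nuclear members had 20522 CPM in pro-B or large pre-B-like, 14163 CPM in small pre-B-like and 12583 CPM in mature B-like barcodes. The mt- share was 7.17%, 9.40% and 9.89% in the same order. The mt- to nuclear ratio was therefore 3.76 (3.74 to 3.78), 7.33 (7.25 to 7.41) and 8.72 (8.62 to 8.81), and the mature B-like value was 2.32-fold that of the pro-B or large pre-B-like barcodes (2.29 to 2.35). Plasma-like barcodes had 11067 CPM, a mt- share of 3.93% and a ratio of 3.70 (3.61 to 3.78).

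Depth moved with these ratios. Over the 20 classes the log2 ratio and the log2 median UMIs had a Spearman's rho of -0.80 (Pearson's r -0.70), and in 17 of 20 classes the ratio was higher in the shallower barcodes of the class than in the deeper ones. The nuclear sum was higher in the deeper barcodes in 15 of 20 classes. The 3 B-lineage classes had median depths of 6697, 2316 and 2692 UMIs. Among barcodes with 2000 to 5000 UMIs the ratios were 5.84 in 374 pro-B or large pre-B-like, 7.498 in 625 small pre-B-like and 9.63 in 819 mature B-like barcodes, the same order with a smaller span. Nuclear sums in that window were 16890, 14238 and 11950 CPM. In barcodes with at most 5% mt- UMIs the ratios were 2.34, 3.38 and 3.04, the last from 11 mature B-like barcodes, and late erythroid-like barcodes had the highest ratio there, at 4.45.

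By member, pro-B or large pre-B-like barcodes had 38 higher and 2 lower, beside 48.9% and 25.4% of all genes, so that the share of members higher (43.2%) was under the background. Their counts without haemoglobin in the denominator were 21 and 2, beside 39.7% and 28.0% of all genes. Of 16 cycling genes 15 were higher in this class. Small pre-B-like barcodes had 9 higher and 19 lower, beside 43.3% and 28.3% of all genes. Their counts without haemoglobin in the denominator were 6 and 27, beside 36.4% and 31.2% of all genes. Mature B-like barcodes had 5 higher and 28 lower, beside 37.8% and 28.3% of all genes. Their counts without haemoglobin were 2 and 48, beside 29.5% and 31.8% of all genes. The members with the largest ratios in these classes were isoforms and assembly factors. In pro-B or large pre-B-like barcodes Cox7a1 had 38 UMIs (4.03 CPM, against 0.92 CPM; 4.38-fold, 2.79 to 6.81). In small pre-B-like barcodes Cox7a2l was 2.598-fold (2.48 to 2.72) and Cox6a2 2.28-fold higher (1.78 to 2.88). Ndufaf1, which helps build the membrane arm of complex I, had 19.3 CPM in small pre-B-like barcodes against 6.83 CPM (2.83-fold, 2.07 to 3.79), and Ndufaf4 had 33.3 CPM in mature B-like barcodes against 14.8 CPM (2.25-fold, 1.80 to 2.77). Plasma-like barcodes had 2 higher and 39 lower, beside 11.5% and 56.9% of all genes. Their counts without haemoglobin were 2 and 54, beside 9.63% and 63.6% of all genes. The complex I subunit Ndufa1 led there, with 254 CPM against 111 CPM (2.28-fold, 1.98 to 2.60), and Cox6b2 had 3 UMIs.

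The genes that copy and transcribe mitochondrial DNA were mostly higher in the 3 B-lineage classes other than the plasma-like one. Of 13 genes, 11 were at least 1.5 times higher and 0 lower in pro-B or large pre-B-like, 12 and 0 in small pre-B-like, and 10 and 1 in mature B-like barcodes, with median log2 ratios of 0.86, 1.01 and 0.89. In mature B-like barcodes Tfam, which packages mitochondrial DNA and starts its transcription, had 82.6 CPM against 32.0 CPM in the other classes (2.58-fold, 2.25 to 2.95). Polrmt, the mitochondrial RNA polymerase, was 3.29-fold higher (2.35 to 4.52). Citric acid cycle genes were 0 higher and 2 lower of 17 in the mature B-like class, and glycolysis genes 3 higher and 14 lower of 19.

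Erythroid-like barcodes were followed by their haemoglobin share, since haemoglobin UMIs were 68.9% of those outside mt- genes in late erythroid-like barcodes and set the plain CPM there. Outside mt- and haemoglobin genes, nuclear members had 29248 CPM (28987 to 29511) in 124 barcodes under 5% haemoglobin, 24349 at 5 to 20%, 17916 at 20 to 50%, 11964 at 50 to 75%, 8487 at 75 to 85% and 12022 (11687 to 12365) in 638 barcodes at 85 to 95%. The mt- to nuclear ratio rose at each step, being 2.27, 2.92, 3.38, 5.36, 8.46 and 14.6 (14.17 to 15.02). Per barcode, nuclear-encoded UMIs were 388 in the first band and 7.63 in the last, and mt- UMIs 881 and 111. Bnip3l, a mitophagy receptor of maturing red cells, had 191 CPM in the first band and 11491 CPM in the last. In the last band barcodes held a median of 682 UMIs outside haemoglobin, and immature neutrophil markers stood at 2852 CPM against 800 CPM in the first band. The part of RNA from other cells in these ratios was not tested. Of 1850 erythroid-like barcodes, 343 lay within 2 percentage points of a band edge (1 point at 5%).

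**Figure D4:**
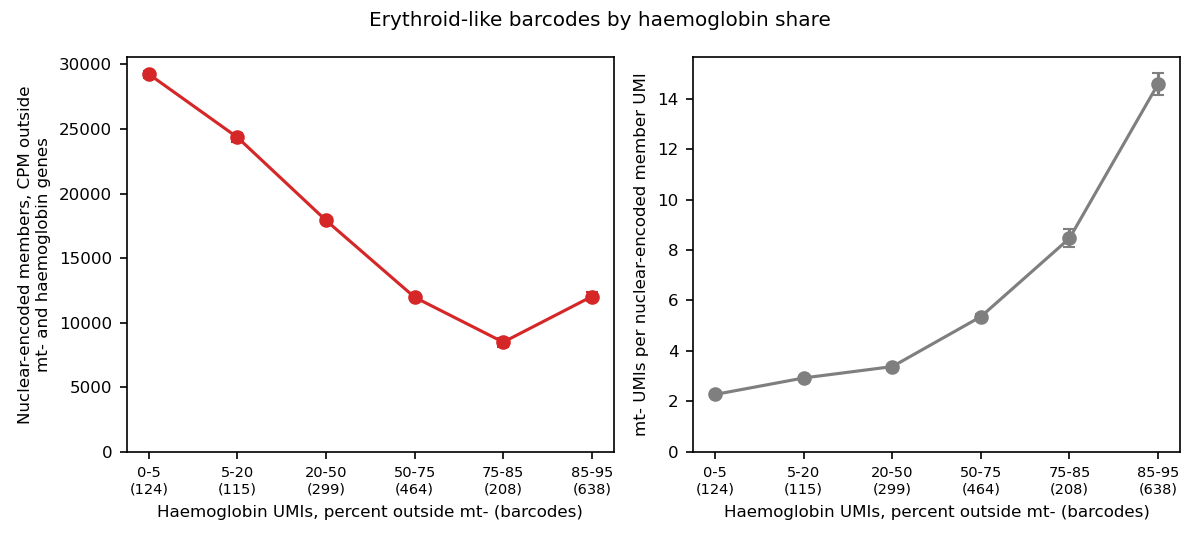
Erythroid-like barcodes in 6 bands of haemoglobin share (x axis, number of barcodes in brackets) against nuclear-encoded member CPM outside mt- and haemoglobin genes (left) and mt- UMIs per nuclear-encoded member UMI (right), with exact 95% intervals. The nuclear sum is 29248 CPM in the lowest band and 8487 CPM at 75 to 85%, while the ratio climbs to 14.6.

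Several complex IV subunits exist as paired isoforms, of which the second form is known from muscle, heart or testis. To set widespread forms beside a restricted one, the 250 bases before the gene start are shown for Cox6a1 (chr5:115348959-115349208, minus strand), Cox6b1 (chr7:30626115-30626364, minus strand) and Cox6b2 (chr7:4753095-4753344, minus strand), from RefSeq on GRCm38.p6, with capitals for matches to the motif letters named below.
Cox6a1: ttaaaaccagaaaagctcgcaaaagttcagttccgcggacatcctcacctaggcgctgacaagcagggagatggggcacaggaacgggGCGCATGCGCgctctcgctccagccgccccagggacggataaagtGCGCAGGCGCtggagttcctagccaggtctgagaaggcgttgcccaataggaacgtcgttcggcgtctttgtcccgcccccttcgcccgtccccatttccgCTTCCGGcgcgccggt
Cox6b1: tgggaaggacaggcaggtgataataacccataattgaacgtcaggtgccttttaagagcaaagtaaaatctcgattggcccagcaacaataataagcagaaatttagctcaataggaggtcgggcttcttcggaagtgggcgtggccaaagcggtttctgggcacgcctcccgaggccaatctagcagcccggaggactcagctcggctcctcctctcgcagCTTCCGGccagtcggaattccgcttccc
Cox6b2: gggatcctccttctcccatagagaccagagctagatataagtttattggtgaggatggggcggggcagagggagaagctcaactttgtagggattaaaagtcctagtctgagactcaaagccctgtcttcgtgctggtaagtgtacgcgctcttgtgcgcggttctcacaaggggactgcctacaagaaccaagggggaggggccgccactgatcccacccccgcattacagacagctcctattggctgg
The Cox6a1 stretch holds 2 matches to the NRF1 motif, which is GCGCA, then any base, then GCGC, and 1 to CCGGAAG, a core of ETS factors such as GABPA, both searched on either strand. Cox6b1 holds 1 ETS match and Cox6b2 none of the 3 motifs searched, the third being the YY1 motif AAGATGGCG. In windows that also take in the 50 bases after the start, 19 of 74 matched nuclear member symbols (25.7%) held the NRF1 motif, against 5.19% of 27025 genes. The ETS motif was in 24.3% of members against 9.93% of genes, and the YY1 motif in 10.8% against 1.64%. The motifs were taken as plain letter matches, and the other 18 nuclear member symbols had no window. The 27025 genes were all genes with a window, not matched to the members in expression or base content. The part of such differences in these shares was not tested.

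Cox6a2, known as the heart and muscle form of subunit 6a, was found mainly in plasmacytoid dendritic-like barcodes. There 593 Cox6a2 UMIs stood beside 170 of Cox6a1, the widespread form, so that Cox6a2 made up 77.7% of the pair (74.6 to 80.6), and 98 of 154 barcodes had a Cox6a2 UMI. Its level was 676 CPM against 4.39 CPM in the other classes, 154-fold higher (133 to 178). Shares of the pair were 17.5% in haematopoietic progenitor-like (12.9 to 22.8; 43 UMIs in 10 of 69 barcodes, 15 of them in 1 barcode), 15.4% in small pre-B-like (12.4 to 18.9; 78 UMIs) and 2.52% in pro-B or large pre-B-like barcodes. In immature and mature neutrophil-like barcodes, which serve as the background, 0.25% and 0.24% of barcodes had a Cox6a2 UMI. The median depth was 5863 UMIs in plasmacytoid dendritic-like barcodes, against 7189 UMIs in immature and 2078 UMIs in mature neutrophil-like barcodes. Thinned to 1000 UMIs per barcode, 36.4% of plasmacytoid dendritic-like (28.8 to 44.5), 1.64% of small pre-B-like and 0.17% of mature neutrophil-like barcodes kept one.

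The plasmacytoid dendritic-like class was not uniform. Of its barcodes, 103 had a UMI of Siglech, a lectin of plasmacytoid dendritic cells, and 95 of these (92.2%) had Cox6a2, which made up 81.4% of the pair. Cd79a, a B-cell receptor gene, had a UMI in 20 of these 103. The other 51 had no Siglech UMI, 48 of them had Cd79a, and 3 had Cox6a2, which made up 24.5% of the pair. Ighm, an immunoglobulin gene, was found in 99.0% of the barcodes with Siglech and 98.0% of those without. Median depths were 6528 and 2871 UMIs in the same order. The split by Siglech was chosen after the values were seen.

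Cox6b2, known as the testis form of subunit 6b, took its largest shares in the 2 erythroid-like classes. It made up 23.7% of the Cox6b1 and Cox6b2 UMIs in early erythroid-like (21.6 to 25.8; 384 UMIs in 111 of 173 barcodes) and 26.8% in late erythroid-like barcodes (24.3 to 29.4). The shares were 13.2% in haematopoietic progenitor-like, 8.65% in granulocyte-monocyte progenitor-like and 6.69% in immature neutrophil-like barcodes, and 0.82% in mature neutrophil-like (5 UMIs) and 0.96% in mature B-like barcodes (6 UMIs). Over the erythroid bands the share stayed between 22.2% and 28.8% up to 85% haemoglobin and was 48.3% in the last band, from 56 Cox6b2 and 60 Cox6b1 UMIs.

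**Figure D5:**
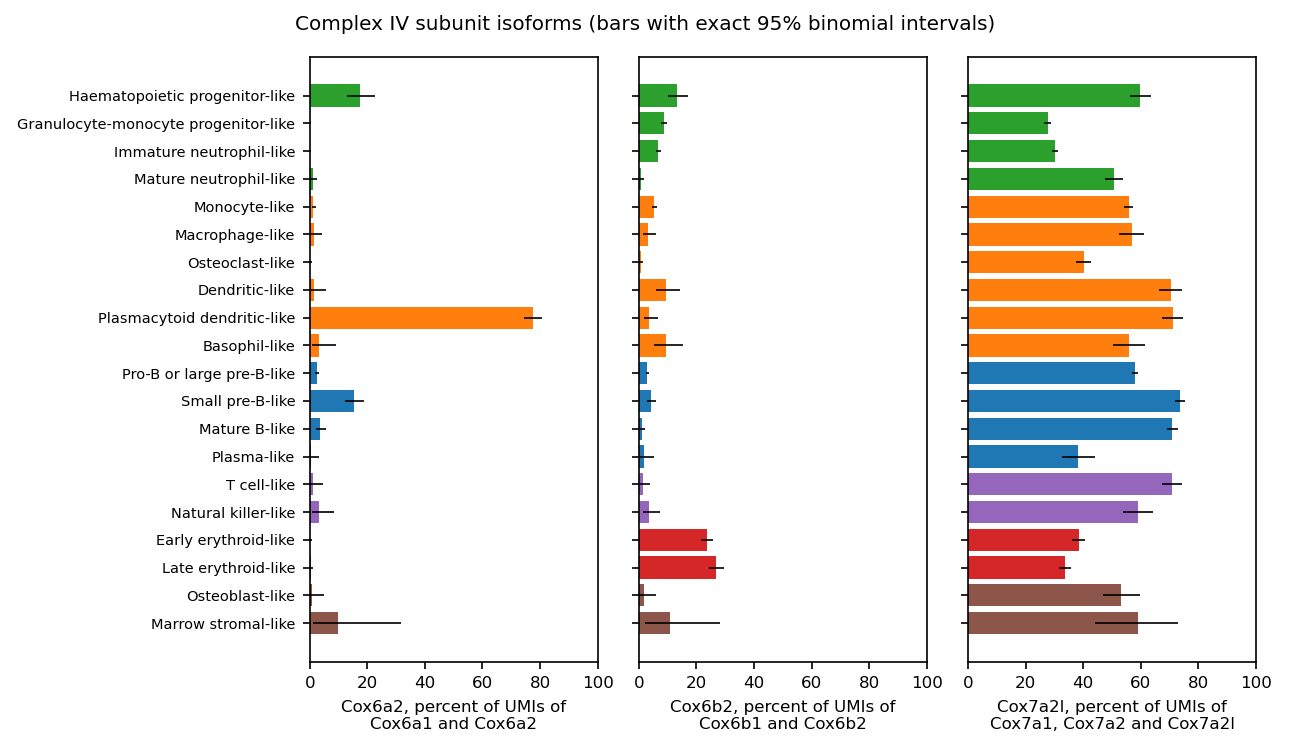
Share of the second or like isoform among the UMIs of its pair or trio in each class, with exact 95% intervals: Cox6a2 (left), Cox6b2 (centre) and Cox7a2l (right). Cox6a2 reaches 77.7% in plasmacytoid dendritic-like barcodes, Cox6b2 23.7% and 26.8% in the erythroid-like classes, and Cox7a2l runs from 27.7% to 73.6%.

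Subunit 7a shifted between its forms. Cox7a2l, also called SCAF1, joins complexes III and IV in supercomplexes, and Cox7a2 is the widespread form. Cox7a2l made up 73.6% of the trio in small pre-B-like (71.9 to 75.2), 71.1% in plasmacytoid dendritic-like, 71.0% in mature B-like, 71.0% in T cell-like and 70.4% in dendritic-like barcodes. It made up 27.7% in granulocyte-monocyte progenitor-like (26.5 to 28.9), 30.1% in immature neutrophil-like, 33.7% in late erythroid-like and 38.2% in plasma-like barcodes. Pro-B or large pre-B-like barcodes, at 58.0% (56.9 to 59.0), lay between. The plasmacytoid dendritic-like share covers the whole class, including the 51 barcodes without a Siglech UMI, of which 48 had Cd79a. Cox7a1, the muscle form, was rare: 22 of its 88 UMIs came from 12 of the 45 osteoclast-like barcodes (27.5 CPM, against 1.05 CPM; 26.2-fold, 15.4 to 43.0) and 38 from 35 of 1119 pro-B or large pre-B-like barcodes, while small pre-B-like and mature neutrophil-like barcodes had 0.

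The remaining second forms were near the limit of detection. Ndufa4l2, a hypoxia-linked relative of Ndufa4, had 8 of its 16 classed UMIs in 5 of the 73 osteoblast-like barcodes, and Cox4i2, the form of subunit 4 known from lung, had 39 UMIs in all, 12 of them in pro-B or large pre-B-like and 7 in macrophage-like barcodes. The 3 genes for the ring subunit of complex V also differed by class, a comparison chosen after their values were seen. Atp5g1 made up 36.2% of the trio in early erythroid-like (34.6 to 37.8) and 33.0% in granulocyte-monocyte progenitor-like barcodes, against 14.3% in mature neutrophil-like and 16.3% in small pre-B-like barcodes. Atp5g3 made up 42.7% in late erythroid-like, 40.4% in mature neutrophil-like and 36.7% in osteoclast-like barcodes, against 17.8% in granulocyte-monocyte progenitor-like barcodes.

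The make-up of the mitochondrial transcripts was steadier. Transcripts of complex IV (mt-Co1, mt-Co2, mt-Co3) made up 45.7% to 58.5% of mt- UMIs over the classes, those of complex V (mt-Atp6, mt-Atp8) 19.6% to 23.6%, and those of complex I (the mt-Nd genes) 13.6% to 19.6%. mt-Cytb, the sole complex III gene of that genome, was lowest in late erythroid-like barcodes at 6.93%. The 3 skeletal and osteoclast classes led for mt-Cytb, with 5938 of the osteoblast-like mt- UMIs (an interval of 12.7% to 13.3%), 11.4% in osteoclast-like (11.2 to 11.6) and 10.6% in marrow stromal-like barcodes (9.90 to 11.3), with plasma-like barcodes next at 9.48% (9.18 to 9.79). In osteoblast-like barcodes it stayed at 12.1% to 14.8% in each band of mt- share. mt-Co1, the catalytic subunit of complex IV, ran from 12.6% in osteoblast-like to 21.1% in late erythroid-like barcodes. Both late erythroid-like values, for mt-Co1 and mt-Cytb, moved with the mt- share. At up to 5%, 5 to 10% and 10 to 20% mt- UMIs, mt-Co1 was 23.4%, 17.8% and 15.6% there. mt-Cytb was 6.14%, 7.77% and 8.73% in the same bands. The medians over classes were 16.0% for mt-Co1 and 8.70% for mt-Cytb. mt-Nd1, mt-Nd2, mt-Nd3, mt-Nd4, mt-Nd4l and mt-Nd5 each varied 1.38- to 2.47-fold between their highest and lowest class.

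Some mt- counts cannot be read gene by gene. On mm10, mt-Atp8 (chrM:7766-7969) overlaps mt-Atp6 (chrM:7927-8607), which shares its last base with mt-Co3, and mt-Nd4l (chrM:9877-10173) overlaps mt-Nd4 (chrM:10167-11544), each pair on the plus strand. mt-Nd6 (chrM:13552-14070) lies on the minus strand and overlaps the end of mt-Nd5. mt-Nd6 was 0.03% of mt- UMIs in granulocyte-monocyte progenitor-like (100 UMIs) and 0.07% in plasma-like barcodes (24 UMIs). Among nuclear members 5 overlap an exon of another gene on the same strand, namely Ndufb2, Ndufb8, Ndufb9 and both Atp5o entries, so reads could be split or dropped there.

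A high mt- share did not go with a fixed change of the nuclear sum. In 10 of 19 classes with at least 2 bands of 10 or more barcodes, the nuclear CPM was lower in the band of highest mt- share than in that of lowest, and the ratio of the 2 ranged from 0.67 to 1.31. Osteoblast-like barcodes had the lowest ratio, with 8963 CPM in 15 barcodes at 20 to 30% against 13407 CPM in 13 barcodes at up to 5%. Osteoclast-like barcodes had the highest, with 57902 CPM in 14 barcodes at 10 to 20% against 44206 CPM in 22 barcodes at 5 to 10%.

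Outside the members, the 3 genes whose log2 CPM over the 20 classes was most like the nuclear sum were 2010107E04Rik (Pearson's r 0.96), Minos1 (0.95) and Slc25a5 (0.94), chosen from genes with at least 200 UMIs. Slc25a5, an adenine nucleotide carrier, had 1263 CPM in osteoclast-like and 123 CPM in mature neutrophil-like barcodes.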

How the data were processed

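Per the file headers and values, the deposited matrix holds whole-number UMI counts per gene and barcode. Cell Ranger 3.1.0, the mm10 build and Seurat 3 (without its use) are named in the submitters' processing notes. The members, marker lists and gene lists were chosen with earlier results of these data known.

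Barcodes with at least 500 UMIs, 200 genes and at most 30% mt- UMIs were kept (13372 of 15014); Scrublet in scanpy 1.11.5 marked 754 doublets (5.64%), which were removed. A barcode joined a class when at least 2 markers, with 4 UMIs together, exceeded 2 times their overall share and the summed deviance, capped at 20 per marker, was at least 8 and 1.5 times that of the next class. Of barcodes left unclassed, 2002 had too few marker UMIs and 705 markers of 2 classes. Counts were summed per class. Intervals are exact Poisson, binomial or conditional binomial; folds of mt- to nuclear ratios use a normal approximation. Member ratios add 0.5 counts per side, need 20 UMIs, and are called at 1.5 times. With 1 library no p-value was computed, and no source used here says whether the 4 records are separate animals. The named genes were all mt- and complex II genes, the isoforms, the most and least counted member of each complex, up to 2 highest and 2 lowest members per class of 50 or more barcodes, and the genes most like the sum; others, among them those of the osteoclast-like class (45 barcodes), were named after their values were seen, and some named by the rule on very few UMIs are left out. Gate and ratio steps were tested on simulated data. Gene coordinates are from GENCODE vM21 on the mm10 assembly.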

Additional observations from a re-analysis of the deposited data

How the results depend on the processing

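Of the values by class, 193 of 482 moved by less than their counting interval under the alternatives and 289 by more, with 0 changes of sign among called values. The mt- to nuclear ratios do not use the denominator, so they could not move when it was changed, and they cannot change sign. Only the nuclear folds of granulocyte-monocyte progenitor-like, early erythroid-like and late erythroid-like barcodes were over the threshold and could count as a change of sign here. Nuclear log2 folds under the threshold did change sign: with at most 5% mt- UMIs the fold over the other classes was 0.19 in immature neutrophil-like (-0.37 otherwise) and 0.24 in mature B-like barcodes (-0.30 otherwise). Osteoclast-like barcodes had the highest nuclear sum under every alternative in which they had a value. With at most 5% mt- UMIs 6 osteoclast-like and 8 plasmacytoid dendritic-like barcodes were left, and between 2000 and 5000 UMIs 2 osteoclast-like ones, too few for a value. The log2 fold of the osteoclast-like nuclear sum over the other classes (1.665) was 1.57 at most 10% mt- UMIs, 1.684 with doublets kept, 1.593 with all UMIs as denominator, 1.491 without haemoglobin, 1.77 as a median over barcodes, 1.768 after thinning to 1000 UMIs, 1.589 with classes from clusters and 1.681 with a class margin of 3 times. The members higher there numbered 76 to 81. The count was 76 with the 8 assembly factors left out of the members, which makes the total smaller.

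That of mature neutrophil-like barcodes (-0.8978) was -0.5099 at most 5% mt- UMIs, -0.9194 at 1500 or more UMIs, -0.7433 with doublets kept, -0.8666 with all UMIs, -1.093 without haemoglobin, -0.6592 as a median, -0.6117 thinned, -0.92 with clusters and -0.5678 between 2000 and 5000 UMIs. The log2 fold of the mt- to nuclear ratio, mature B-like over pro-B or large pre-B-like (1.213), was 1.011 at most 10%, 0.3742 at most 5% and 1.294 with no mt- limit, 1.042 as a median, 1.011 thinned, 1.397 with clusters, 1.29 with the wider margin and 0.7222 between 2000 and 5000 UMIs. That of late over early erythroid-like barcodes (1.145) was 1.055, 1.887 and 1.203 at those mt- limits, 1.117 at 1500 or more UMIs, 1.074 with doublets kept, 1.434 as a median, 1.659 thinned, 1.48 with the wider margin and 3.119 between 2000 and 5000 UMIs. The Cox6a2 share in plasmacytoid dendritic-like barcodes (77.7%) was 80.87% with the wider margin and 64.71% between 2000 and 5000 UMIs. The causes of these shifts were not tested.

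Clusters and markers gave 8492 of 9851 barcodes the same class (86.2%). The clusters were named with the same marker lists, so this share is not an independent check of the classes. The wider margin, the depth window, the split at each class's median depth and the Siglech split were chosen after seeing the data. Subtraction of free RNA was not run, since no file of empty droplets was used here. No paired analysis was possible because all records share 1 matrix with no map of barcodes to records. With 1 library the spread between animals is unknown.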

Other observations

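In haematopoietic progenitor-like barcodes the assembly factor Ndufaf4 had 46.9 CPM against 15.1 CPM in the other classes (3.102-fold, 2.29 to 4.12). In macrophage-like barcodes the complex II anchor Sdhc had 119 CPM against 39.3 CPM (3.03-fold, 2.40 to 3.77), and the assembly factor Ndufaf3 had 6 UMIs (0.35-fold, 0.13 to 0.76). In dendritic-like barcodes the complex I subunit Ndufa6 had 330 CPM against 196 CPM (1.68-fold, 1.45 to 1.94). In plasmacytoid dendritic-like barcodes, with and without Siglech together, the complex I subunit Ndufs8 had 124 CPM against 67.5 CPM (1.84-fold, 1.51 to 2.23). In T cell-like barcodes Uqcrh, the hinge subunit of complex III, had 834 CPM against 507 CPM (1.65-fold, 1.52 to 1.77). In basophil-like barcodes the complex I subunit Ndufv3 had 47.0 CPM against 99.3 CPM (0.47-fold, 0.29 to 0.73). The 2707 barcodes in no class had a mt- to nuclear ratio of 5.20 and 15837 CPM of nuclear members, against 3.50 and 15388 CPM in all classed barcodes.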
